A study of Mus musculus with 78 samples.

Results

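The copies described here belong to the B4, RSINE1 and ID families of short interspersed elements (SINEs) of the mouse genome. They are the rows of the 4-cell and 8-cell repeat tables whose name, before the copy number, starts with B4, with RSINE, or with ID followed by a digit or the sign _. The 4-cell table held 22297 such copies among 278683 repeat copies (8.00%), and the 8-cell table held 31526 among 327627 (9.62%). They fell into 7 subfamilies, named B4, B4A, RSINE1, ID_B1, ID2, ID4 and ID4_. Copies named plainly ID do not meet the rule and were left out of every count of members.

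SINEs are short retrotransposons without coding capacity that are copied by the machinery of LINE elements. An ID element derives from the neuronal RNA gene Bc1, which itself descends from a transfer RNA gene. A B4 element joins an ID-like part to a part that resembles B1, the SINE derived from 7SL RNA, and RSINE1, B4A and ID_B1 are placed in the B4 family in repeat annotation. RNA polymerase III transcribes SINEs from a promoter inside the element, built of an A box and a B box. A copy that lies in an intron or exon of a gene is also carried in that gene's own transcript, and reads on a copy do not tell these sources apart.

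The sequence of Bc1 is shown because it is the source of the ID copies and holds both boxes. It is from RefSeq's GRCm38 assembly, plus strand, chr7:144914470-144914623, annotated as a long non-coding RNA gene. The capitals mark the matches to TAGCNNAGTGG (the A box, bases 14 to 24 of the transcript) and to GTTCGNNNC (the B box, bases 58 to 66).
Bc1: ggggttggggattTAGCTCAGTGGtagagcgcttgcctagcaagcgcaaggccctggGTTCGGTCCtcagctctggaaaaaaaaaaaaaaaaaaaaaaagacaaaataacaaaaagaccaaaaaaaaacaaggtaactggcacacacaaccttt
Both strands were searched, and the letters were written with the Bc1 sequence in view. Among 32851 promoter windows of the same 154 bases, 0.161% held the A box letters and 2.37% held the B box letters. Bc1 itself was listed in the 4-cell gene table, above 0 in 1 blastomere (column S13) at 2.90 FPKM, and it was not among the genes listed at the 8-cell stage. FPKM is the number of fragments scaled by the length of the feature and by the fragments counted in the blastomere.

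The study traced sister blastomeres of preimplantation mouse embryos by colour and sequenced the RNA of each one. Embryos carried the Brainbow2.1 reporter at Rosa26 and a tamoxifen-inducible Cre (cre/Esr1*) driven by the CAG promoter, and all of them had been exposed to 4-hydroxytamoxifen and cultured, those of both stages alike. The labels give 36 blastomeres of the 4-cell and 31 of the 8-cell stage, while the tables hold 24 and 26 columns, none of which names a sample or an embryo. Each stage was therefore treated as 1 sample, its columns are described by their lowest, median and highest value, and no test between stages was made.

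The denominator that turns fragments into FPKM could be read from the values and was 6884378 to 16904615 in the 4-cell blastomeres and 2341593 to 21782101 in the 8-cell blastomeres, of which column S57 was the shallowest. Fragments on repeats numbered 928649 to 2052863 at the 4-cell stage and 224086 to 2803094 at the 8-cell stage. Columns S13 to S16 of the 4-cell table stood apart, with 4 to 6 member copies on chromosome X, against 22 to 106 in the other 20 columns. All 9 blastomere markers were listed in both tables, and 6 of them in the 4-cell and 5 in the 8-cell table had a median of at least 1 FPKM. Dppa3, a maternal and germline factor, was the highest, with medians of 3658 and 3260 FPKM. Zscan4d, a gene of early zygotic transcription, had medians of 0 and 0, Ooep 0.645 and 0, Tet3 0.0464 and 0, and Nlrp5, a maternal effect gene, 5.06 and 0.122. Of 7 cumulus and granulosa cell markers 3 and 4 were listed, with summed levels of at most 0.970 and 1.66 FPKM, and none of 3 blood markers was listed at either stage.

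A small share of the annotated copies was seen, and the share differed between subfamilies. Copies are numbered along each chromosome in their names, and the highest numbers give at least 448672 annotated member copies, of which 4.97% were listed at the 4-cell stage and 7.03% at the 8-cell stage. Over all repeats the shares were 5.86% and 6.89%, and for B1 they were 13.9% and 14.8%. ID_B1 had the highest share of the 7 subfamilies at both stages, with 6.42% (7056 copies) and 8.61% (9472 copies). RSINE1 followed among the large subfamilies, with 5.46% (6269) and 7.76% (8912). B4 had 3.49% (2214) and 5.01% (3175), and B4A had 3.58% (3772) and 5.33% (5612). The subfamilies ID2, ID4 and ID4_ lay between ID_B1 and B4A. ID2 had 5.52% and 8.18% (295 and 437 copies), ID4 5.51% and 7.97% (1311 and 1895) and ID4_ 5.30% and 7.77% (1380 and 2023).

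ID_B1, RSINE1 and, below them, B4A and B4 kept their order from blastomere to blastomere. Per 1000 annotated copies, a 4-cell blastomere held a median of 5.79 ID_B1 copies above 0 (2.0 to 11.1), 4.43 RSINE1 copies (1.44 to 9.14), 2.53 B4A copies (1.16 to 5.19) and 2.52 B4 copies (1.18 to 5.08). At the 8-cell stage the medians were 7.68, 6.46, 3.93 and 3.86. For ID2 the medians of the stages were 6.27 and 8.61, and for ID4 5.87 and 8.01, both above those of ID_B1. For ID4_ they were 5.03 and 7.55. ID_B1 lay above RSINE1, and RSINE1 above both B4A and B4, in 24 of 24 and 26 of 26 blastomeres. B4A lay above B4 in 13 of 24 and 17 of 26, so these neighbours had no stable order. ID4 lay above B4 in all 50 blastomeres and above ID_B1 in 14 of 24 and 16 of 26. The blastomeres are not replicates, and those of 1 embryo share their source.

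**Figure D1:**
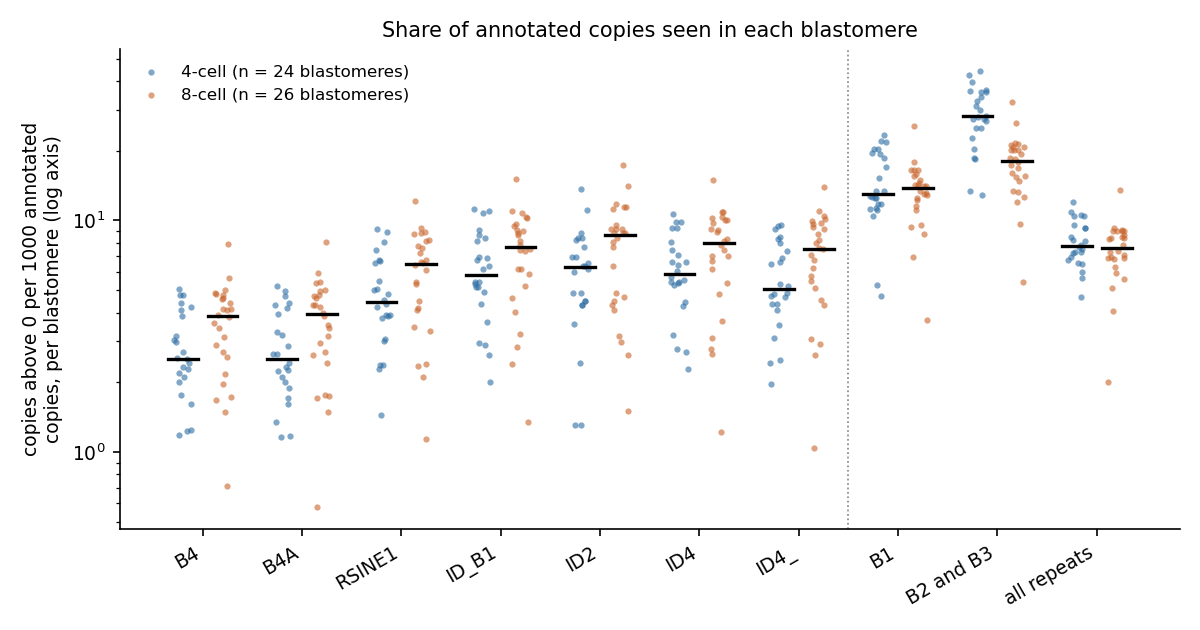
Copies above 0 per 1000 annotated copies (log axis) in each of 24 4-cell and 26 8-cell blastomeres, for the 7 subfamilies and, right of the dotted line, for B1, B2 and B3, and all repeats. Points are blastomeres and black bars are medians, and B4 and B4A lie lowest at both stages.

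The median number of member copies per blastomere was higher at the 8-cell stage, while that of repeats as a whole was not. A 4-cell blastomere held 708 to 3680 member copies above 0 (median 1877) and an 8-cell blastomere 448 to 5210 (median 2636), a ratio of medians of 1.40 with ranges that overlapped widely. Of the 26 8-cell blastomeres 19 lay above the 4-cell median and 7 below it, namely columns S50 and S53 to S58, all from the first 11 columns of the table (S48 to S58). Over all repeats 13 lay above and 13 below. The same ratio was 0.984 over all repeats, with medians of 36838 and 36262, 1.06 for B1 and 0.643 for B2 and B3. Every subfamily had a higher 8-cell median, with ratios of 1.33 for ID_B1, 1.37 for ID2 and ID4, 1.46 for RSINE1, 1.5 for ID4_, 1.53 for B4 and 1.56 for B4A. When each blastomere was thinned, in closed form, to the 224086 repeat fragments of the shallowest one, the medians of all members were 1414 and 1846, a ratio of 1.31, with 17 of the 8-cell blastomeres above the 4-cell median and 9 below. The 5 columns of the 8-cell table that carry no name held 2638 to 5210 member copies, and without them the ratio was 1.29. Columns S53 to S58 also had few genes, 3548 to 5391 at 1 FPKM or more, against 5884 to 8078 in the other 8-cell columns. The 4-cell columns with the fewest member copies, S18, S20, S21 and S24, had 3009 to 5336, against 6319 to 8276 in the others. The stages also differ in the number of embryos and in the table they were deposited in, and these cannot be told apart from the stage.

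Members made up a median of 5.21% of the repeat copies above 0 in a 4-cell blastomere (2.77% to 7.41%) and of 7.19% in an 8-cell blastomere (3.50% to 8.85%). Of the SINE copies above 0 they made up 10.2% and 15.7%. Their share of the summed FPKM of repeats was 5.27% (4.69% to 6.43%) and 6.36% (4.35% to 7.57%), and their share of repeat fragments was 5.31% (4.14% to 6.76%) and 6.51% (4.57% to 7.87%). All of these ranges overlapped between the stages.

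Most member copies were seen in a single blastomere. Exactly 1 of the 24 4-cell blastomeres had a value for 15121 copies (67.8%), and exactly 1 of the 26 8-cell blastomeres had one for 21206 copies (67.3%). The share was 54.8% and 59.8% over all repeats, 56.5% and 59.1% for B1, and 41.4% and 51.3% for B2 and B3. B4A had the highest share at the 4-cell stage (72.3%), and B4 and B4A shared the highest, 71.6%, at the 8-cell stage. ID_B1 had 65.5% and 65.3%, and RSINE1 had 68.2% and 67.2%. ID4 had 63.4% and 64.5%, ID4_ 64.6% and 62.2%, and ID2 64.4% and 59.5%. A 4-cell blastomere held 191 to 1436 member copies that no other blastomere of the stage held (median 542), the most in column S5, and an 8-cell blastomere 92 to 2010 (median 779), the most in an unnamed column.

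Few copies were seen everywhere. At the 4-cell stage 37 member copies (0.166%) were above 0 in all 24 blastomeres, and at the 8-cell stage 48 (0.152%) were above 0 in all 26, against 0.499% and 0.379% of all repeats and 0.114% and 0.134% of B1 copies. These copies held 17.3% and 16.7% of the fragments on members. By subfamily, in the order of the stages, there were 4 and 5 B4 copies, 3 and 2 B4A copies, 9 and 12 RSINE1 copies, 13 and 18 ID_B1 copies, 0 and 1 ID2 copies, 4 and 4 ID4 copies, and 4 and 6 ID4_ copies. Without column S18 the 4-cell count was 56, and without S57 the 8-cell count was 66. The subfamily shares also depended on single columns. With 1 column left out, the 4-cell share rose at most from 0.144% to 0.245% for RSINE1 and from 0.0795% to 0.138% for B4A. For ID4 it rose from 0.305% to 0.543%, for ID4_ from 0.290% to 0.438% and for ID2 from 0% to 0.685%. At the 8-cell stage ID2 rose from 0.229% to 0.460%, ID_B1 from 0.190% to 0.286% and B4A from 0.0356% to 0.0546%.

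**Figure D2:**
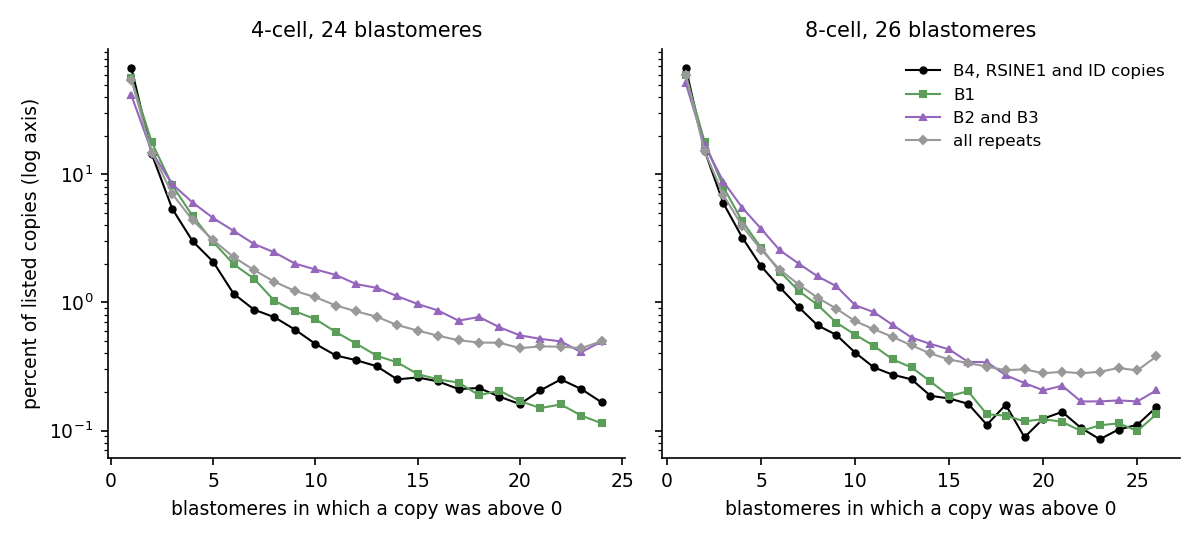
Percent of listed copies (log axis) by the number of blastomeres in which a copy was above 0, at the 4-cell stage (left) and the 8-cell stage (right), for the B4, RSINE1 and ID copies, B1, B2 and B3, and all repeats. The member curve starts highest, at 67.8% and 67.3% in 1 blastomere, and falls to 0.166% and 0.152% in every blastomere.

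The typical value of a member copy rested on more fragments than the typical value over all repeats. Fragments per value were recovered from the FPKM, and they are lower limits for copies seen in few blastomeres. The median value above 0 stood for 12 fragments at the 4-cell stage and 16 at the 8-cell stage, against 5 and 7 over all repeats and 4 and 5 for B1. Of member values 16% and 17.3% were a single fragment, against 27.5% and 26.8% over all repeats. Among copies seen in exactly 1 blastomere the median was 5 and 6 fragments, and 35.7% and 41.6% of these copies had at least 10 fragments. Fragments are read pairs after amplification and without molecular identifiers, so many fragments on a copy need not be many molecules.

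Copies were matched between the stages by name and chromosome. The length of a copy, recovered separately from each table, was equal in 1377 of 1382 member copies (99.6%) seen in at least 5 blastomeres of each stage, and in 7437 (72.4%) of all 10278 member copies listed at both stages, for many of which the length rests on few values. The 10278 copies are 46.1% of the 4-cell and 32.6% of the 8-cell list, against 52.1% and 44.3% over all repeats. The shares were lowest for B4 (39.7% and 27.7%) and B4A (42.3% and 28.5%), and they were 45.7% and 32.2% for RSINE1 and 48.1% and 35.8% for ID_B1. For ID2 they were 51.2% and 34.6%, for ID4 51.6% and 35.7% and for ID4_ 52.0% and 35.4%. Of member copies seen in 1 blastomere at the 4-cell stage, 33% were listed at the 8-cell stage, and of those seen in 12 to 23 blastomeres 99.8% were, against 32% and 99.6% over all repeats in these classes. In the other direction, 19.4% of member copies seen in 1 8-cell blastomere were listed at the 4-cell stage, against 25.6% over all repeats, and 57.2% of those seen in 2 to 12 blastomeres were, against 68.7%. Pairs of 4-cell blastomeres shared a median of 14.9% of the member copies that either held (4.80% to 22.7%), pairs of 8-cell blastomeres 11.8% (4.24% to 23.2%), and pairs across the stages 11.5% (3.75% to 22.7%). Over all repeats these medians were higher, at 23%, 19.5% and 18.6%, and for B1 they were 13.6%, 12% and 11.5%.

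All 50 blastomeres held 24 of the member copies, of which 11 were ID_B1, 5 RSINE1, 3 B4, 2 ID4, 2 ID4_ and 1 B4A. They are 24 of the 37 copies seen everywhere at the 4-cell stage and 24 of the 48 at the 8-cell stage, and over all repeats the counts were 650 of 1391 and 650 of 1242. Among ID_B1, ID2, ID4 and ID4_ copies the highest by median FPKM was ID4_dup606_chr3, of 61 bases. It had 557 to 2129 FPKM at the 4-cell stage (median 1627) and 1036 to 2755 at the 8-cell stage (median 1688). The next was ID_B1_dup5395_chr11, of 88 bases, with 348 to 2276 FPKM (median 1122) and 689 to 2046 (median 1393). For both copies most values of one stage lay within the range of the other. ID_B1_dup7402_chr7 had 226 to 1100 FPKM (median 538) and 181 to 511 (median 371), and here the 8-cell median lay lower. ID_B1_dup4922_chr5 had medians of 429 and 608, and ID4_dup1313_chr11 had medians of 427 and 539. ID4_dup113_chr4 and ID4__dup1744_chr2 were in every 4-cell and 25 of the 26 8-cell blastomeres, with medians of 755 and 674 FPKM and of 501 and 381 FPKM. ID_B1_dup21_chr11 missed 1 of the 24 4-cell blastomeres and had medians of 890 and 833. FPKM divides by length, and by median fragments the order differed. ID4_dup606_chr3 had 1248 and 1841 fragments, ID_B1_dup5395_chr11 had 1242 and 2115, and ID_B1_dup21_chr11 had 1390 and 1710.

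Among B4 and B4A copies, B4A_dup4177_chr11 was highest by median FPKM at both stages. This copy of 45 bases had 2.30 to 966 FPKM at the 4-cell stage (median 622) and 491 to 2714 at the 8-cell stage (median 933), so that its lowest 4-cell value, a single fragment, lay far below all others. B4_dup1730_chr7, which at 313 bases is near the longest B4 copy of 323 bases, had 51.0 to 615 FPKM (median 219) and 48.9 to 431 (median 172). FPKM divides by length, and by median fragments B4_dup1730_chr7 lay above B4A_dup4177_chr11, with 870 against 352 and 925 against 732. B4_dup1874_chr10 and B4_dup1875_chr10 carry consecutive numbers, and their medians were 135 and 138 FPKM at the 4-cell stage and 160 and 166 at the 8-cell stage. Across blastomeres the values of these neighbours moved together, with a Spearman's rho of 0.93 over 24 and 0.95 over 26 blastomeres. The near-numbered ID copies ID4__dup820_chr11 and ID4__dup822_chr11 did not, with -0.11 and -0.10, and only 11 and 6 blastomeres held both. B4_dup2910_chr5 was above 0 in 24 blastomeres of each stage, with medians of 98.5 and 39.5 FPKM. B4_dup2841_chr5, a fragment of 11 bases, was above 0 in 17 of 24 and 26 of 26 blastomeres, with medians of 45.1 and 166, a ratio of 3.69 that was 1.98 without columns S13 to S16. B4A_dup1166_chr18 was above 0 in 23 of 24 and 26 of 26, with medians of 425 and 279.

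Among RSINE1 copies, RSINE1_dup4247_chr4 had the highest median FPKM at the 4-cell stage and a lower median at the 8-cell stage. It had 352 to 1336 FPKM at the 4-cell stage (median 658) and 0 to 422 at the 8-cell stage (median 159), a ratio of medians of 0.243 with ranges that overlapped between 352 and 422. RSINE1_dup3973_chr8 had the highest median FPKM at the 8-cell stage, with 87.6 to 808 FPKM (median 378) and 102 to 2033 (median 520). RSINE1_dup2089_chr8 had medians of 140 and 152 FPKM. RSINE1_dup2260_chr14 had 50.5 to 855 (median 184) and 0 to 293 (median 90.5), and RSINE1_dup6858_chr9 had medians of 94.4 and 108. The copies RSINE1_dup141_chr17, RSINE1_dup1389_chr12, RSINE1_dup3353_chr6 and RSINE1_dup7030_chr1 were in every 8-cell blastomere and missed 1 to 3 of the 4-cell ones, with 8-cell medians of 277, 266, 317 and 214 FPKM.

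**Figure D3:**
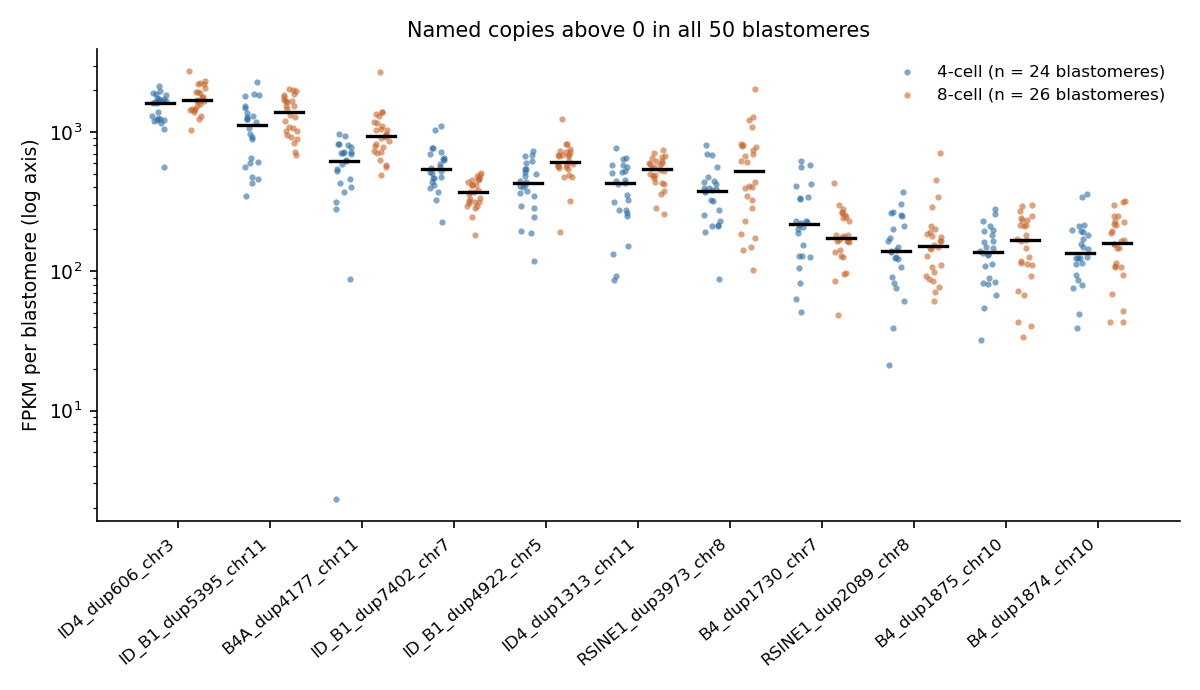
FPKM per blastomere (log axis) of 11 named copies that were above 0 in all 50 blastomeres, 24 at the 4-cell stage and 26 at the 8-cell stage. Points are blastomeres and black bars are medians. The ranges of the stages overlap for each copy, and ID4_dup606_chr3 has the highest median FPKM at both.

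Across the members seen widely, the typical level was close to equal at both stages. Of 460 member copies above 0 in at least 12 blastomeres of the 4-cell and 13 of the 8-cell stage, the median ratio of the 8-cell to the 4-cell median was 0.936, with quartiles of 0.615 and 1.62. Over all 11718 repeats that met the same condition it was 0.757, for B1 0.821, and for B2 and B3 0.301. An 8-cell median at least 2-fold above the 4-cell one was found for 85 members (18.5%), against 18.8% of all repeats. A median at least 2-fold below was found for 82 members (17.8%), against 36.8% of all repeats and 72.5% of B2 and B3 copies. By subfamily the median ratio ran from 0.835 for ID4_ (42 copies) and 0.873 for RSINE1 (116) to 1.01 for ID4 (50) and 1.04 for ID2 (10).

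The most extreme ratios came from copies near the limit of that condition. The highest was 470 for ID_B1_dup5388_chr4, which was above 0 in 12 of 24 4-cell blastomeres (median 0.289 FPKM, highest 294) and in 21 of 26 8-cell blastomeres (median 136, highest 328). RSINE1_dup1808_chr19 had a ratio of 50.7 (12 of 24 and 19 of 26 blastomeres), ID_B1_dup1895_chr9 one of 40.2 (12 and 16), B4A_dup978_chr16 one of 15.9 (12 and 15) and ID2_dup101_chr19 one of 14.9 (13 and 20). With means in place of medians these 5 ratios were much nearer to 1, in the same order 2.05, 3.10, 1.55, 1.42 and 2.03. Without columns S13 to S16 the ratio of ID_B1_dup1895_chr9 was 4.10 and that of B4A_dup978_chr16 was 7.84, and ID_B1_dup5388_chr4 and RSINE1_dup1808_chr19 had no ratio. Without the unnamed columns the ratio of B4A_dup978_chr16 was 2.93 and that of ID_B1_dup1895_chr9 was 21.2. The lowest 5 copies were all above 0 in exactly 13 of 26 8-cell blastomeres, where the median is the mean of 0 and the smallest value above 0. The lowest ratio, 0.00775, belonged to ID4__dup176_chr5, whose means were 59.1 and 59.2 FPKM. RSINE1_dup2982_chr16 had a ratio of 0.0139 and remained low by its highest values, 65.8 FPKM at the 4-cell stage and 1.57 at the 8-cell stage. For ID4__dup820_chr11, ID4_dup327_chr2 and ID4__dup822_chr11 the ratios were 0.0162, 0.0169 and 0.0205, with highest 8-cell values of 366, 186 and 460 FPKM. With means in place of medians these 3 ratios were 0.775, 0.778 and 1.07.

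The median recovered length was longest for B4 and B4A and shortest for ID2, ID4 and ID4_, with wide overlap between B4 and B4A and between RSINE1 and ID_B1. Over copies with at least 3 values the median length was 166 bases for B4 (770 copies) and 181 for B4A (1383), 129 for RSINE1 (2586) and 131 for ID_B1 (3115), and 71.5, 74 and 71 for ID2, ID4 and ID4_ (144, 604 and 656 copies). The longest member copy had 354 bases, a B4A. Pooled over subfamilies, the 37 copies in every 4-cell blastomere had a median of 97 bases and the 48 in every 8-cell blastomere 112, against 125 bases at both stages for copies seen in 3 to 11 blastomeres. Within subfamilies the order differed. For RSINE1 the copies in every blastomere had medians of 134 and 136 bases against 131 and 130, for ID_B1 139 and 139 against 132 and 131, for ID4 77.5 and 79 against 74 and 74, and for ID4_ 73.5 and 72.5 against 72 and 71. For B4 the medians were 190 and 135 bases against 167 and 162, and for B4A 47 and 55.5 against 194 and 182. These rest on 2 to 18 copies in every blastomere per subfamily and stage.

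Member copies were listed on all chromosomes, with the highest share on chromosome 11. There 7.05% of the annotated member copies were listed at the 4-cell stage and 9.27% at the 8-cell stage, and chromosome 19 followed with 6.04% and 8.40%. On chromosome X the shares were 2.51% and 4.76%, and on chromosome Y 0.679% and 0.509% (12 and 9 copies). All repeats had a like order, with 8.56% and 9.69% on chromosome 11 and 3.56% and 4.67% on chromosome X. The annotated density of members was also highest on chromosome 11, at 238 copies per Mb or more, and was at least 121 on chromosome X and 19.3 on chromosome Y. These densities are lower limits, since they rest on the highest number among listed copies, and the shares listed are upper limits. On chromosome Y, with few copies listed, the limit can lie far below the annotated number. The copy with the next number of the same subfamily and chromosome was listed for 16.9% of the 4-cell and 23.6% of the 8-cell members, against the 4.97% and 7.03% of annotated copies listed in all. Over all repeats the next number was listed for 25.1% and 24.7%, against 5.86% and 6.89% of annotated copies. For B1 it was listed for 24.3% and 27.2%, against 13.9% and 14.8%, and for B2 and B3 for 42.2% and 38.2%, against 16.2% and 15.2%.

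**Figure D4:**
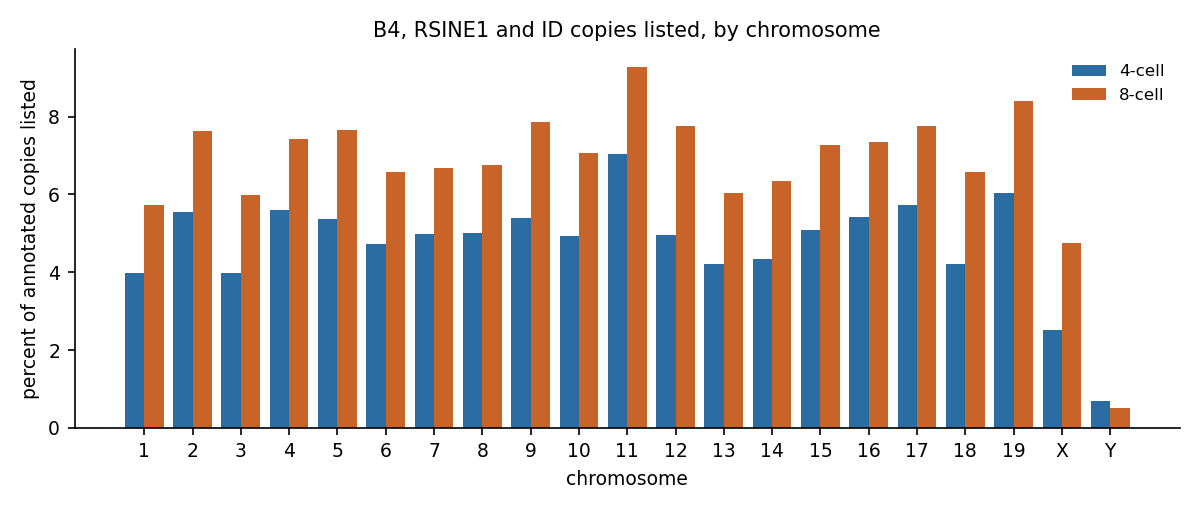
Percent of the annotated B4, RSINE1 and ID copies of each chromosome that were listed at the 4-cell stage and the 8-cell stage. Chromosome 11 is highest, at 7.05% and 9.27%, and chromosomes X and Y are lowest.

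A group of 4 copies with low numbers on chromosome 7 was seen in all 50 blastomeres, with 8-cell medians 1.73 to 2.16 times the 4-cell ones. It was picked out after its values were seen. ID_B1_dup15_chr7 had medians of 43.5 and 91.3 FPKM, RSINE1_dup16_chr7 59.5 and 122, ID4__chr7 47.6 and 82.3, and ID4__dup1_chr7 22.9 and 49.4. The values of ID_B1_dup15_chr7 and RSINE1_dup16_chr7 had a Spearman's rho of 0.98 over the 24 4-cell and 0.85 over the 26 8-cell blastomeres. ID4__dup1_chr7 followed RSINE1_dup16_chr7 less closely, with 0.55 and 0.14.

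The X-linked share of member copies was read for each blastomere. It was 1.98% to 4.37% in 20 of the 4-cell and 1.93% to 4.64% in the 26 8-cell blastomeres. In columns S13 to S16 it was 0.147% to 0.435%, among 1378 to 3582 member copies. Without these 4 columns the 4-cell median of member copies per blastomere was unchanged at 1877.

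**Figure D5:**
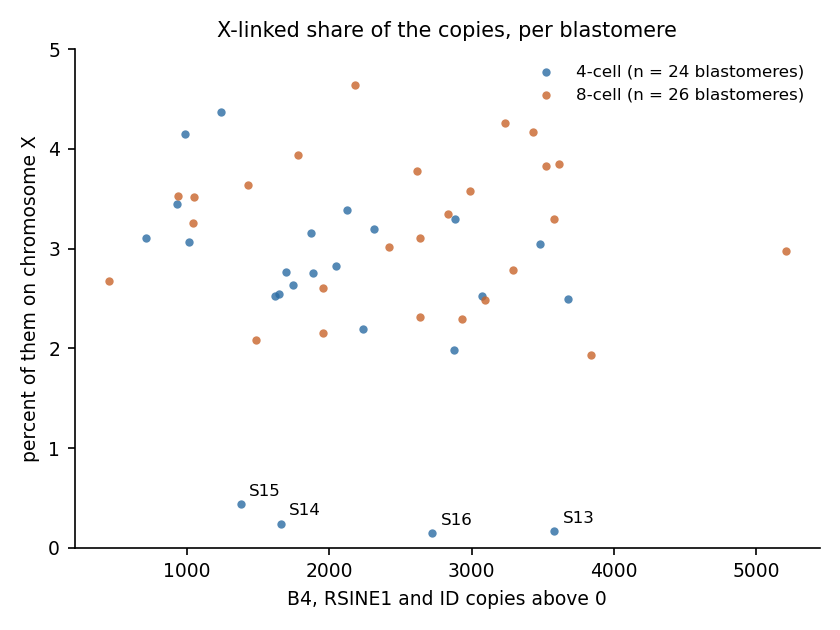
Percent of the B4, RSINE1 and ID copies above 0 that lie on chromosome X, against the number of such copies above 0, for 24 4-cell and 26 8-cell blastomeres. Columns S13 to S16 lie below 0.5% and the other points lie between 1.93% and 4.64%.

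Most genes of the RNA polymerase III lists had a median of at least 1 FPKM at both stages. For scale, single 4-cell blastomeres had 3009 to 8276 of 15218 listed genes at 1 FPKM or more, and 8-cell blastomeres 3548 to 8078 of 15342. That is a count per blastomere and not a share of genes by their median, so the 2 are not compared. The share of all listed genes with such a median is not given, so the counts below are not called high or low. Of 11 RNA polymerase III subunits 10 had a median of at least 1 FPKM at each stage, and the summed level had a median of 516 FPKM (360 to 709) at the 4-cell stage and 403 (189 to 587) at the 8-cell stage. Polr3g, the subunit typical of early embryos and stem cells, had medians of 92.5 and 61.5 FPKM, and its paralog Polr3gl was above 0 in 2 of 24 and 1 of 26 blastomeres. Of the 11 factors of initiation and control, 10 had a median of at least 1 FPKM at each stage. Brf1, a subunit of the initiation factor TFIIIB, did not, with medians of 0.0123 and 0.00982 FPKM. Of the 6 subunits of the B box binding complex TFIIIC on the list, Gtf3c2 had medians of 15 and 37 FPKM and Gtf3c3, the gene with the lowest ratio among the factors (0.172), 21.7 and 3.73. The ratios of the other TFIIIC subunits were 0.562 for Gtf3c1, 0.692 for Gtf3c4, 0.738 for Gtf3c6 and 1.09 for Gtf3c5. Tbp, the TATA-binding protein, had medians of 113 and 43.3 FPKM. Over the subunits 0 genes had an 8-cell median at least 2-fold above and 1 at least 2-fold below the 4-cell median. Over the factors 1 lay above and 2 below, against 11.6% above and 18.7% below of 7107 genes.

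Srp9 and Srp14, whose products bind the 7SL-like part of SINE RNA, had medians of 233 and 178 FPKM and of 232 and 129 FPKM. Ssb, the La protein that binds RNA polymerase III transcripts, had medians of 40.4 and 52.6. Adar, which edits double-stranded RNA, had medians of 1.09 and 0.0770 FPKM, with ranges of 0 to 14.5 and 0 to 5.02, and was the 1 gene of these 4 past 2-fold. Of 8 genes that silence SINEs or carry repressive marks, 3 had an 8-cell median at least 2-fold above the 4-cell median and 1 at least 2-fold below, against the 11.6% and 18.7% of all genes compared. Trim28, a corepressor of repeats, had 8.12 to 165 FPKM (median 59.8) at the 4-cell stage and 25.6 to 280 (median 121) at the 8-cell stage. Adnp, part of a complex with Chd4 that binds SINEs, had medians of 8.15 and 18.2, and Suv39h2, a histone methyltransferase, 0.0175 and 0.387, both near 0. Dnmt1, the maintenance DNA methyltransferase, had medians of 7.72 and 2.26. The ranges of the stages overlapped for each of these genes.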

How the data were processed

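RNA of single mouse blastomeres had been amplified by Smart-seq2, which primes on poly(A) tails, and sequenced as read pairs. The authors aligned the reads to mm10 with STAR (2.5.1b, per the labels), counted them with HTSeq, and deposited the values as FPKM, in a gene and a repeat table per stage. Reads that aligned to more than 1 place had been dropped, so young, near-identical copies can be undercounted. Repeat copies carry a name and chromosome and no coordinates, so their sequences are not shown.

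Here each column's FPKM denominator was recovered as the commonest greatest common divisor, and was equal in the gene and repeat table for all 50 columns. The length of a copy was the smallest that made all its values whole fragments (Python 3.11.15, NumPy 2.4.6, pandas 2.3.3). In tests on simulated data all 50 denominators were returned. Lengths were returned for 99.9% of member copies with at least 5 values and for 87.7% of those with at least 1 value. Very short simulated lengths were raised to a minimum, so copies as short as B4_dup2841_chr5 were not tested. A length from few values can be too short: 37.3% of single member values alone would give fewer fragments. No column was left unused. Stages were taken from the tables, whose columns match no sample, so no test and no paired analysis was made.

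Named copies were taken for B4 with B4A, for RSINE1, and for ID_B1 with ID2, ID4 and ID4_. They are the 5 with the highest median at each stage among copies in every blastomere. Also named are the 5 highest and 5 lowest stage ratios among copies in at least 12 of the 4-cell and 13 of the 8-cell blastomeres. Members, lists and rules were chosen with earlier results of these data known. Alternatives were another minimum of fragments, fewer columns, thinning, another denominator, and means for medians.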

Additional observations from a re-analysis of the deposited data

How the results depend on the processing

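The ratio of 8-cell to 4-cell medians of member copies per blastomere was 1.29 to 1.41 under the alternatives run, and over the 7 subfamilies and all settings it ran from 1.20 to 1.63. Counting values of at least 2 fragments, the share of copies in exactly 1 blastomere was 64.8% at the 4-cell stage and 63.4% at the 8-cell stage. Without columns S13 to S16, chosen after seeing the data, the 4-cell share was 68.8%, and without the unnamed columns the 8-cell share was 70.0%. With each blastomere left out in turn these shares ran from 67.5% to 68.6% and from 67.1% to 68.0%. The share of copies in every blastomere ran from 0.168% to 0.258% at the 4-cell stage, highest without S18, and from 0.154% to 0.210% at the 8-cell stage, where the shallowest blastomere, S57, gave the 0.210%. Among SINE copies alone the members' share was 10.2% and 15.7%. With at least 2 blastomeres, 4033 copies were listed at both stages, which is 56.2% of the 4-cell and 39.1% of the 8-cell list. Without this minimum the shares were 46.1% and 32.6%, and with it they were 59.3% and 56.7% over all repeats. No paired analysis was possible because the labels give different embryos at each stage and their replicate numbers are in no column name. With means in place of medians, 24 of 34 named copies kept a ratio within 1.5 times of the one given, and 3 crossed 1: ID4__dup176_chr5 (1.0), ID4__dup822_chr11 (1.07) and RSINE1_dup6858_chr9 (0.880). Without columns S13 to S16, 28 of the 34 stayed within 1.5 times, 4 moved further without crossing 1 and 2 had no ratio, and without the unnamed columns 27 stayed within it, 6 moved further and 1 had no ratio. Spearman's rho between repeat fragments and member copies above 0 was 0.05 over 24 4-cell and 0.77 over 26 8-cell blastomeres.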

Other observations

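Columns S13 to S16 of the 4-cell table also stood apart in genes. They held 24 to 35 X-linked genes at 1 FPKM or more, which is 0.343% to 0.442% of their genes at that level, against 2.82% to 3.97% in the other 20 columns and 2.58% to 3.64% at the 8-cell stage. Column S13 had 6 X-linked member copies among 3582, S14 had 4 among 1658, S15 had 6 among 1378 and S16 had 4 among 2725. Over all repeats their X-linked share was 1.51% to 2.53%, against 3.24% to 5.65% in the other 20 columns. The labels give these columns no group, and no cause was tested.

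Copies named plainly ID, which the rule leaves out, numbered 363 at the 4-cell stage and 485 at the 8-cell stage. A 4-cell blastomere held 9 to 65 of them above 0 (median 34) and an 8-cell blastomere 4 to 89 (median 42.5). The share seen in exactly 1 blastomere was 64.2% and 63.9%, and 0 and 1 of them were seen in every blastomere.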
